A study of Mus musculus with 35 samples.

Results

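Genes for the proteins of the mitochondrial ribosome were read in the suprarenal aorta of ApoE-/- mice, which lack apolipoprotein E and develop abdominal aortic aneurysms under angiotensin II (Ang II). The members were chosen by name, as all array probes whose gene name is Mrpl or Mrps followed by a number. The rule gave 75 genes, 46 named for the large subunit and 29 for the small, out of 18670 genes tested. They were covered by 125 of 41174 probes, 119 of which were tested, and all 75 genes passed the filter on dim probes. A further 5 probes carry older names of the family (Mrp63, D10Ertd322e and Ict1) and fall outside the rule.

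All 35 animals were male ApoE-/- mice, so the saline controls carried the deletion too. An osmotic minipump was implanted at 12 to 14 weeks of age and delivered saline or Ang II at 1000 ng/kg/min. The saline groups held 6, 6 and 5 arrays at 7, 14 and 28 days, and the Ang II groups held 4, 5 and 6. A further 3 arrays held dissected aneurysms at 7 days of Ang II. Each array held 1 whole suprarenal aorta in Cy5 against a mouse reference RNA in Cy3, with no dye swap. The aorta RNA was amplified linearly and the reference was labelled by direct reverse transcription, on all arrays alike. Values are therefore log2 ratios of aorta to reference, and they are compared between aortas and never between genes.

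The mitochondrial ribosome translates the few messenger RNAs of mitochondrial DNA, all of which code for subunits of the respiratory chain and the ATP synthase. Its RNA comes from the mitochondrial genome, whereas every one of its proteins is encoded in the nucleus, made in the cytosol and imported. Some of these proteins descend from bacterial ribosomal proteins and others are found only in mitochondria. Tissues rich in mitochondria, such as brown fat and heart, hold much of this machinery, and brown fat can lie around the mouse aorta.

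Promoters of 66 of the 75 members were found in a RefSeq table of the GRCm38.p6 build, with 250 bases before and 50 after each start, and 9 members had no entry. Of these members' 72 promoters, 16.7 percent held the nuclear respiratory factor NRF1 motif (GCGCA and GCGC parted by any base), against 4.6 percent of all 32851 promoters in the table. The ETS motif CCGGAAGT, read by GA-binding protein, was in 16.7 percent against 3.89 percent, and the YY1 motif AAGATGGC in 15.3 percent against 2.75 percent. The SP1 motif GGGCGG was in 51.4 percent against 35.7 percent, and the estrogen-related receptor motif TCAAGGTCA in 0 against 0.423 percent. Both strands were searched, a promoter counted once however many matches it held, and matches of different motifs could overlap.

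The promoters of 5 members named in the results are shown so that members with and without these letters can be compared. They lie at chr16:84735195-84735494 (minus strand) for Mrpl39, chr1:37890227-37890526 (plus strand) for Mrpl30, chr9:105053018-105053317 (plus strand) for Mrpl3, chr13:100744610-100744909 (minus strand) for Mrps36 and chr14:54426659-54426958 (plus strand) for Mrpl52. Capitals mark NRF1 and ETS matches on either strand, and Mrps36 has neither.
Mrpl39: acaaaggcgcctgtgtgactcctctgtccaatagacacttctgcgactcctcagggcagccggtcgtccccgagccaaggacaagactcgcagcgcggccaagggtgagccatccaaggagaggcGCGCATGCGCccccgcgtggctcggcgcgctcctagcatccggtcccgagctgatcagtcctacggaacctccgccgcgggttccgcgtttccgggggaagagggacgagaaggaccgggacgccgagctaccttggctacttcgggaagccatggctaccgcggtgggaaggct
Mrpl30: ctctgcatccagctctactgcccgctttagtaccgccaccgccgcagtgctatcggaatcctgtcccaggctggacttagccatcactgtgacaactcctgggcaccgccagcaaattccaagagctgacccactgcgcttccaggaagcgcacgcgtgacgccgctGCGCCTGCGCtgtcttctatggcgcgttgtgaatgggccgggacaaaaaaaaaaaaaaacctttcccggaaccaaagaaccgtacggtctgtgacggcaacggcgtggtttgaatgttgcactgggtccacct
Mrpl3: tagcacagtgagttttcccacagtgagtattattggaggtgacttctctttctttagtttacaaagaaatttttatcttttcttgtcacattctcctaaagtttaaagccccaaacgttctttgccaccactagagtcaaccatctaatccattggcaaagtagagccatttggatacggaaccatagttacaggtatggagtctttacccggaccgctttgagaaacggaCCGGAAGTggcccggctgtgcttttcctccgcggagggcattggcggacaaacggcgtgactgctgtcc
Mrps36: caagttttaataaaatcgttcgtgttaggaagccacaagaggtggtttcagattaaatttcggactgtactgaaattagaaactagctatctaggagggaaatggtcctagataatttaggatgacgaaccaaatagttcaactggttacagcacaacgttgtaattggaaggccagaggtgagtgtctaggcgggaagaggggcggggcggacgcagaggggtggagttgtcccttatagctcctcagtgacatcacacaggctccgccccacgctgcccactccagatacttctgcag
Mrpl52: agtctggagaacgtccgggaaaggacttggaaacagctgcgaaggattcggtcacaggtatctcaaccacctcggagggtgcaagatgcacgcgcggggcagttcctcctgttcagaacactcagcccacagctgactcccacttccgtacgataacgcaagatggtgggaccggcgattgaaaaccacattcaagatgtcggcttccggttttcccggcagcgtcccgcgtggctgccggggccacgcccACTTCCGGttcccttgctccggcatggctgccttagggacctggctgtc
The NRF1 match of Mrpl39 spans bases -125 to -116 from the start and that of Mrpl30 bases -83 to -74. The ETS match of Mrpl3 spans bases -19 to -12, and that of Mrpl52, the member that rose, spans bases 2 to 9 after the start on the minus strand. Members that fell after 7 days of Ang II held the NRF1 motif in 17.6 percent of 34 promoters, and the other members in 15.8 percent of 38. These were 6 promoters in each set. The 34 came from 34 genes and the 38 from 32, since some genes had more than 1 promoter. The ETS motif stood at the same shares, 17.6 and 15.8 percent. Promoters of cytosolic ribosomal proteins held NRF1 in 6.67 percent and ETS in 14.7 percent of 75.

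On single arrays the signal of the aorta rose well above background at 45.0 to 84.8 percent of spots, with a median of 57.1 percent. The lowest was saline replicate 5 at 28 days and the highest Ang II replicate 4 at 14 days. The 3 dissected arrays stood at 48.72, 50.55 and 47.22 percent, beside 50.15 to 62.23 in the saline arrays at 7 days. Every member's chosen probe was above background on all 35 arrays except that of Mrps18b, which was above it on 33, and none was saturated. Myh11, the smooth muscle myosin, and Ucp1, the uncoupling protein of brown fat, were each above background on every array, so markers of both smooth muscle and brown fat were detected. Scans fell on 2 days and 11 slides. All 3 dissected arrays were scanned on day 2, and so was 1 of the 4 other Ang II arrays at 7 days.

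After 7 days of Ang II the members were lower as a family. The mean over the 75 genes ran from 0.21 to 0.73 in the 6 saline arrays, with a median of 0.30. It was -0.28, -0.22, 0.09 and -0.16 in the 4 Ang II arrays. All 4 lay below all 6 saline arrays. In RNA of a whole tissue, fewer cells of a type and less RNA per cell cannot be told apart.

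Of the 75 members, 38 fell and 1 rose at an adjusted p under 0.05 in limma. Over all genes tested 27.2 percent were called in this comparison, 12.6 percent lower and 14.5 percent higher. The estimate was below 0 for 71 members, with a median log2 change of -0.60 and a range of -1.34 to 0.70, beside a median of 0 and 50.4 percent below 0 over all genes. In 30 members all 4 Ang II values lay below all 6 saline values, and in none did they lie above. Such separation downward was seen in 8.32 percent of all genes and upward in 12.3 percent. Without Ang II replicate 1, or without Ang II replicate 2, the count fell to 24 members, 23 lower and 1 higher in each case. Over all genes 3260 and 3189 were then called in turn.

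**Figure D1:**
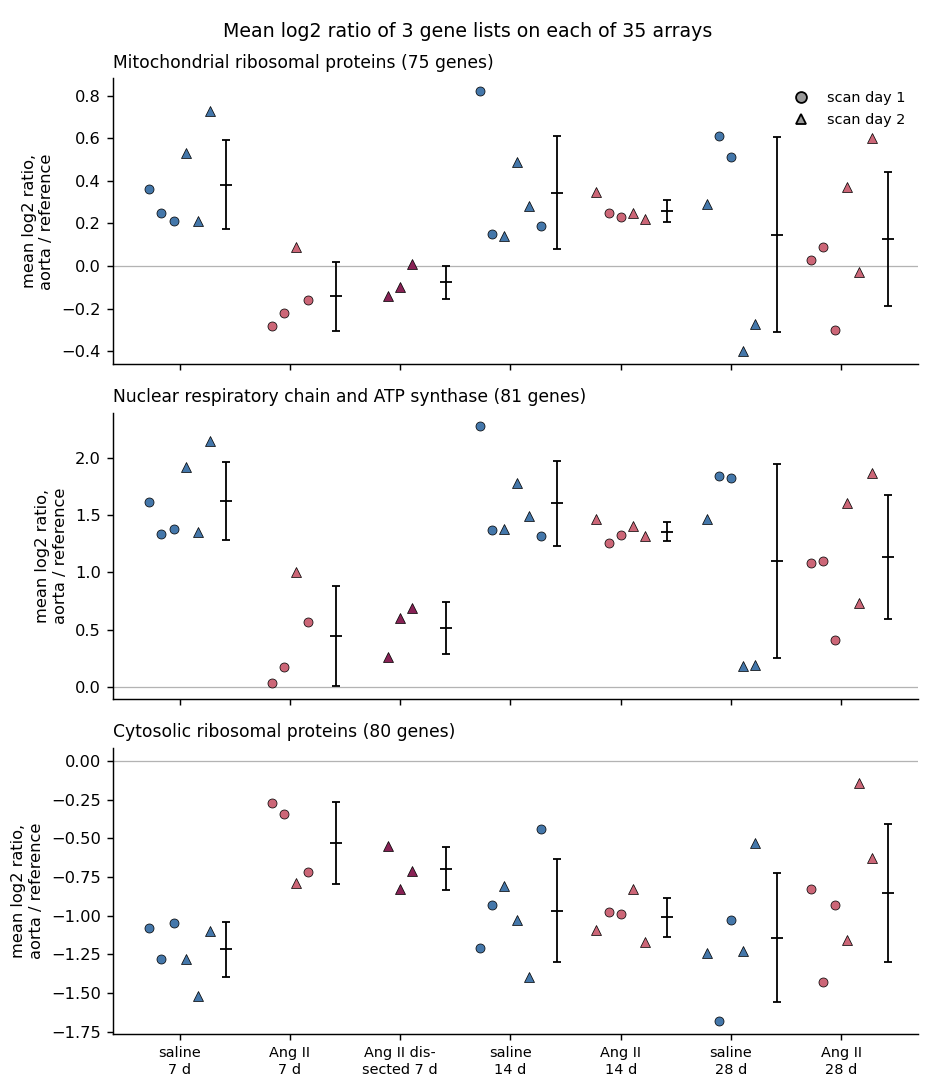
Mean log2 ratio of aorta to reference over 3 gene lists, 1 point per array (circles scan day 1, triangles scan day 2), with mean ± SD beside each group. The 4 Ang II arrays at 7 days lie below the 6 saline arrays for mitochondrial ribosomal proteins and for the respiratory chain and above them for cytosolic ribosomal proteins, and 2 saline arrays at 28 days (-0.40 and -0.27 in the top panel) lie apart from the other 3 of their group.

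The count of called members depended on how arrays were scaled. With each array centred on its median in place of loess, the median change was -0.78 (-0.07 over all genes), 2 members, Mrps36 and Mrps14, were called and 35 had an unadjusted p under 0.05. Over all genes 1559 of 18670 were called with that centring, beside 5069 with loess. Mrps31, Mrps35, Mrpl34, Mrpl39, Mrpl50, Mrpl52 and Mrpl55 then had an adjusted p from 0.0501 to 0.235. Scaling the spread of the arrays after loess left 21 called (4005 over all genes) and a median of -0.61, whereas the scanner software's own ratios gave 41 and -0.65. Within scan day 1, which held 3 aortas of each group, 22 members fell and the median was -0.55. Over all genes 2744 were called within that day. Scan day 2 held 1 Ang II aorta of this group, too few to read a count of calls, and the median there was -0.44.

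Among proteins named for the small subunit the lowest estimate was that of Mrps36. This gene is a member by name, and its product has been placed in the 2-oxoglutarate dehydrogenase complex of the citric acid cycle. Its log2 ratio ran from 0.70 to 1.59 in saline aortas, median 1.29, and was -0.46, -0.43, 0.33 and 0.04 under Ang II. All Ang II values lay below all saline values, and the fall was 1.34 (standard error 0.291, adjusted p = 0.00115), or 2.54-fold. A second probe of the gene gave -1.42 (standard error 0.326).

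Mrps31, a small-subunit protein found only in mitochondria, ran from 0.21 to 1.11 in saline aortas with a median of 0.64. Under Ang II it was -1.04, -0.73, 0.18 and -0.42, again without overlap, and the fall was 1.15 (standard error 0.260, adjusted p = 0.00168). Mrps14, the counterpart of bacterial S14 in the head of the small subunit, ran from 0.45 to 1.03 in saline aortas and was -0.44, -0.55, 0.04 and -0.46 under Ang II. The groups were apart, and of all members Mrps14 had the smallest adjusted p, 0.000266, with a fall of 0.99 (0.184). Mrps35, another protein found only in mitochondria, ran from 0.01 to 0.56 in saline aortas and was -1.19, -0.91, -0.27 and -0.46 under Ang II. Its fall was 0.98 (0.276, adjusted p = 0.00939) and missed the threshold without Ang II replicate 1 (-0.82, adjusted p = 0.0557).

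In the large subunit the lowest estimate was that of Mrpl34, the counterpart of a small bacterial protein that binds ribosomal RNA. It ran from 0.88 to 1.97 in saline aortas with a median of 1.46, and was 0.11, 0.15, 0.64 and 0.32 under Ang II. The groups were apart and the fall was 1.15 (0.333, adjusted p = 0.0113). Mrpl39, found only in mitochondria, ran from 0.17 to 1.28 with a median of 0.61 and was -0.53, -0.72, -0.22 and -0.50 under Ang II. All 4 Ang II values were below 0 and all 6 saline values above it, a fall of 1.12 (0.291, adjusted p = 0.0054). With scale normalization Mrpl34 (-1.09, adjusted p = 0.0842) and Mrpl39 (-1.07, adjusted p = 0.0568) lost their calls.

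Mrpl55 ran from 1.30 to 2.29 in saline aortas with a median of 1.75, and was 0.41, 0.79, 1.09 and 0.89 under Ang II, a fall of 1.00 (0.249, adjusted p = 0.00395) without overlap. Mrpl50, found only in mitochondria, ran from 0.49 to 1.37 and was -0.41, -0.04, 0.54 and 0.26 under Ang II. Its groups overlapped, since the highest Ang II aorta, replicate 3, lay above the lowest saline aorta, and the fall was 0.97 (0.265, adjusted p = 0.00763). That Ang II aorta had the highest value of its group in all 8 of the falling members named so far. It was also the only aorta of its group scanned on day 2, so aorta and scan day cannot be told apart within the group.

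Mrpl52, a large-subunit protein found only in mitochondria, was the single member that rose. It ran from -0.53 to -0.06 in saline aortas, median -0.22, and was 0.85, 0.72, 0.34 and -0.08 under Ang II. Of the 4 Ang II values 3 lay above all saline values, and the rise was 0.70 (0.179, adjusted p = 0.00458). A second tested probe of Mrpl52 gave 0.85 (0.221). With median centring in place of loess the estimate was 0.52 and was not called (adjusted p = 0.235).

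**Figure D2:**
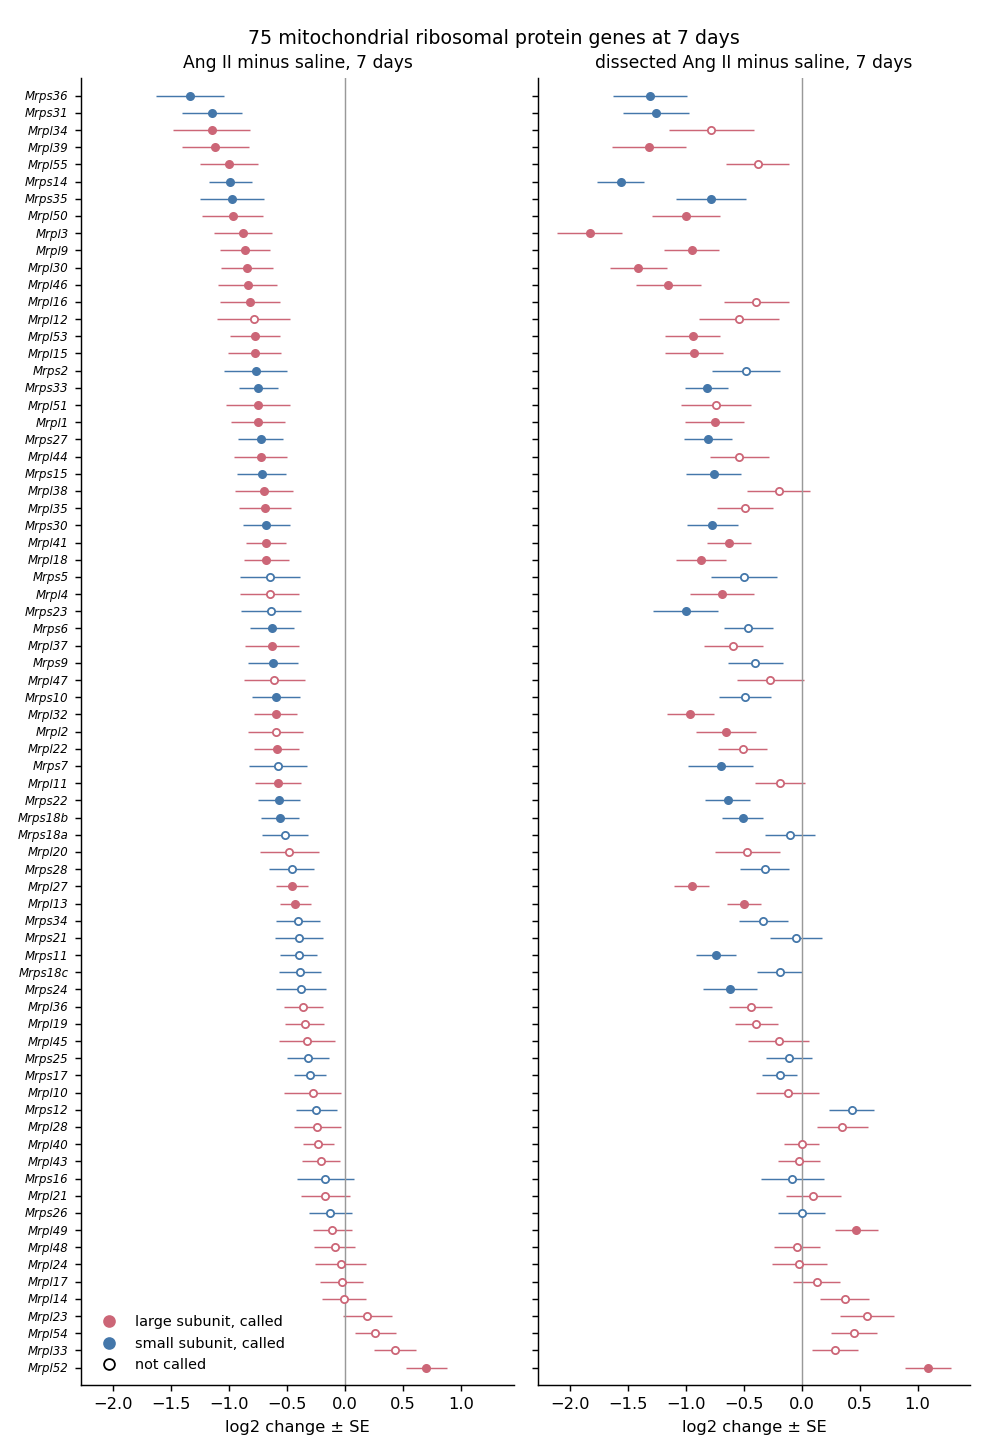
Log2 change ± SE of all 75 members at 7 days, Ang II against saline (left) and dissected Ang II against the same saline arrays (right), large-subunit names in red and small-subunit names in blue, filled where called. On the left 38 members are called below 0 and Mrpl52 above it. On the right 30 are called below 0, with Mrpl3 lowest at -1.83, and Mrpl52 and Mrpl49 above it.

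Falls were found in both subunits, in shares to be read beside the 12.6 percent of all genes called lower and 14.5 percent called higher. By name 24 of 46 large-subunit genes fell and 1 rose, with a median of -0.60, and 14 of 29 small-subunit genes fell, with a median of -0.58. Among genes with a bacterial counterpart 15 of 30 large-subunit genes fell (median -0.59) and 7 of 18 small-subunit genes (median -0.54). Among those found only in mitochondria the counts were 9 of 16 with 1 rise (median -0.66) and 7 of 11 (median -0.68). Differences between these classes were not tested.

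Members that carry out the steps of translation were read one by one. In the stalk, which recruits the translation factors, Mrpl11 fell by 0.58 (0.198, adjusted p = 0.0292). Its partner Mrpl12, which is also known to bind the mitochondrial RNA polymerase, had an estimate of -0.79 (0.315, adjusted p = 0.0608) with no overlap between groups, and Mrpl10 one of -0.28 (0.247, adjusted p = 0.433). Mrps12, of the decoding centre, stood at -0.25 (0.178, adjusted p = 0.314). At the exit tunnel, where the new chain leaves, Mrpl24 stood at -0.04 (0.219, adjusted p = 0.916) and Mrpl45 at -0.33 (0.241, adjusted p = 0.317).

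A list of 9 members mutated in human mitochondrial disease, which is not the full set of such genes, held 5 that fell, beside 38 of all 75 members and 12.6 percent of all genes. Mrpl3, close to the site of peptide bond formation, fell by 0.88 (0.253, adjusted p = 0.0107), and its 3 other tested probes gave -0.84, -1.17 and -0.76. Mrpl44, with a domain like that of a ribonuclease, fell by 0.73, Mrps2 by 0.77, Mrps22 by 0.57, and Mrps14 as given above. The call of Mrps2 rested on its brightest probe. Its other tested probes gave -0.30 and -0.03 and missed the threshold over probes in limma (adjusted p = 0.0939 and 0.891). Mrps7 (-0.58, adjusted p = 0.0822), Mrps16 (-0.17, adjusted p = 0.663), Mrps23 (-0.64, adjusted p = 0.0617) and Mrps34 (-0.41, adjusted p = 0.102) missed the threshold. The other probe of Mrps23 gave -0.90 and passed the threshold over probes in limma (adjusted p = 0.0317). That of Mrps7 gave -0.25 and did not (adjusted p = 0.4). Mrps30 and Mrps18a, named for the small subunit but found in the large one, were at -0.68 (called) and -0.52 (adjusted p = 0.0504).

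For 30 members 2 or more probes were tested, and in 4 of them the probes differed in sign at 7 days. A call was involved in 3. Mrpl38 had probes at -0.70, -0.81 and 0.29, all of which passed the threshold over probes. The third was designed on another cDNA, whose position in the mm8 build given by the array files, chr11:115954382-115954441, lies apart from those of the first (chr11:115948044-115948103) and the second (chr11:115950592-115951053). Mrps15 had probes at -0.72 and 0.25, and Mrps9 at -0.62, -0.47 and 0.06. In both genes the probe above 0 was again the one designed on a separate cDNA, and it was well above background on 29 and 32 of the 35 arrays, against 35 for the others. Which transcript each probe reads was not tested.

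Of 62 genes in 4 lists of factors that work with the mitochondrial ribosome, 28 fell at 7 days and none rose, beside 12.6 percent lower and 14.5 percent higher over all genes. Of 15 translation factors 8 fell (median -0.58), led by Lrpprc, which stabilises mitochondrial messenger RNAs, at -1.50 (0.318) and Gfm1, a mitochondrial elongation factor, at -1.35 (0.359). Of 20 genes for ribosome assembly 10 fell (median -0.40), among them Mtg1, a GTPase, at -0.87 (0.290) and Eral1, a chaperone of the small ribosomal RNA, at -0.61 (0.168). Of 17 mitochondrial aminoacyl-tRNA synthetases 5 fell (median -0.26), and of 10 genes for mitochondrial DNA and its transcription 5 fell (median -0.40), including Tfb2m, a transcription factor of mitochondrial DNA, at -1.02 (0.274). Tfam, which packages that DNA, was at 0.54 (0.213, adjusted p = 0.0599).

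Of 7 mitochondrial ribosomal proteins that carry other names, Ptcd3 fell by 0.91 (0.239) and the other 6 were not called, with a list median of -0.29. Among 10 regulators of mitochondrial gene expression 3 fell and 2 rose. Ppargc1b, a coactivator of mitochondrial genes, fell by 1.70 (0.454), Esrra by 0.96 (0.321) and Gabpa, the DNA-binding subunit of GA-binding protein, by 0.74 (0.153). Pprc1, a related coactivator, rose by 1.08 (0.207) and Myc by 0.63 (0.216). Ppargc1a was at -1.01 (0.686, adjusted p = 0.283) and Nrf1 at 0.11 (0.109, adjusted p = 0.472).

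The products of the mitochondrial ribosome join subunits made in the cytosol, and those fell too. Of 81 nuclear genes of the respiratory chain and ATP synthase 67 fell and 1 rose, with a median of -1.27 against -0.60 for the members. Their mean per array ran from 1.34 to 2.15 in saline aortas and was 0.03, 0.17, 1.00 and 0.57 under Ang II. The cytosolic ribosome went the other way: 54 of 80 of its protein genes rose and none fell, with a median of 0.71. The mean of these genes ran from -1.52 to -1.05 in saline aortas and was -0.27, -0.34, -0.79 and -0.72 under Ang II.

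**Figure D3:**
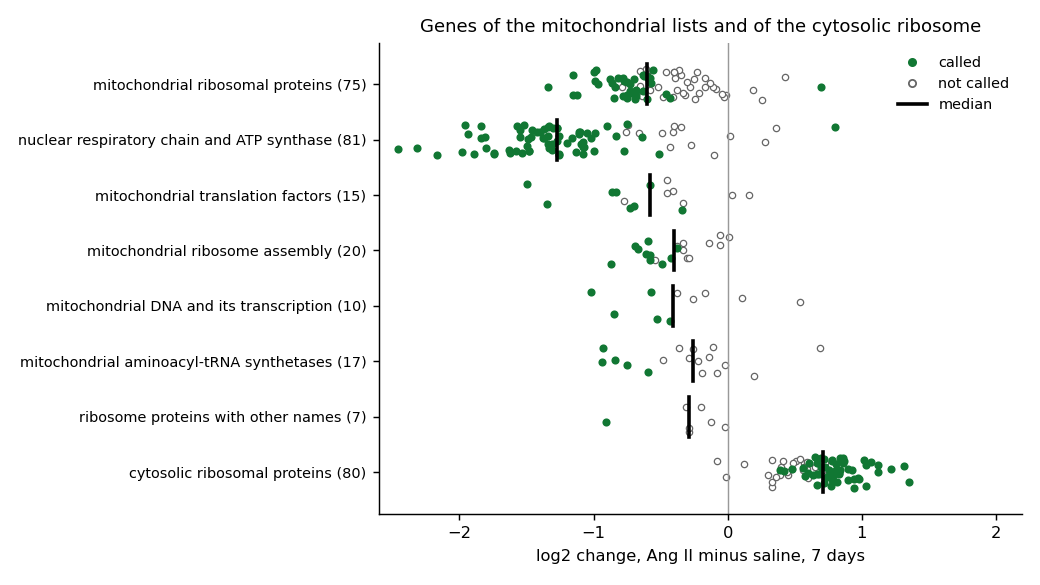
Log2 change at 7 days, Ang II minus saline, of each gene of 8 lists (number of genes in brackets), filled where called, with a bar at each median and vertical scatter only to part the points. The medians run from -1.27 for the respiratory chain through -0.60 for the mitochondrial ribosome to 0.71 for the cytosolic ribosome.

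Markers of some other cell types were called at 7 days and those of others were not. Of 12 brown adipocyte markers 5 fell at 7 days and none rose (median -1.05), beside 12.6 percent lower and 14.5 percent higher over all genes. Each marker was above background on every array at 7 days except Otop1, which was above it on 3 of 4 Ang II arrays. The 5 were Fabp3, Otop1, Cox7a1, Cpt1b and Elovl3, whereas Ucp1 (-0.90, adjusted p = 0.165) and Cidea (-0.43, adjusted p = 0.491) were not called. Their summed level, given as the mean log2 ratio per array, ran from 3.82 to 5.05 in saline aortas and was 2.23, 2.83, 4.62 and 3.95 under Ang II. The 2 Ang II aortas lowest in these markers, replicates 1 and 2, were also the 2 lowest in the members. Cox7a1 and Cox8b are in both this list and that of the respiratory chain.

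With the brown adipocyte mean of each array as a covariate, 8 members were called at 7 days, 5 lower and 3 higher, and the median was -0.25. That fit called 3374 of the 18670 genes tested, beside 5069 without the covariate. With the means of 5 neighbouring tissues as covariates (brown and white adipocytes, chromaffin cells, adrenal cortex and kidney tubule) 1 member was called and the median was -0.22. Over all genes 1217 were called in that fit. White and common adipocyte markers fell in 2 of 12, beside 12.6 percent of all genes called lower (median -0.48, array means 4.10 to 5.23 in saline and 3.89 to 4.79 under Ang II). Chromaffin and sympathetic markers fell in 7 of 10 (median -2.04; 0.94 to 4.04 and 0.07 to 2.26). All 13 macrophage markers rose (median 2.24; -0.51 to 0.32 and 1.89 to 2.63), and so did all 8 markers of dividing cells (median 1.57; -4.42 to -3.16 and -2.10 to -1.58).

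Smooth muscle markers were called in 1 of 9, higher (median 0.26; 1.80 to 3.90 and 2.90 to 3.49). Adrenal cortex (5 tested) and kidney tubule (7 tested) had none called by limma at 7 days, with 0 and 1 at an unadjusted p under 0.05. Their array means stayed between -0.12 and 0.75, and Cyp11a1, Lrp2, Umod and Slc12a1 were above background on none of the 6 saline arrays at 7 days. Hepatocyte, skeletal muscle and endothelial markers had none called by limma at 7 days, with 3, 0 and 0 at an unadjusted p under 0.05 and medians of -1.72, 0.21 and -0.09. The part of any cell type in the members' fall was not tested beyond these values.

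**Figure D4:**
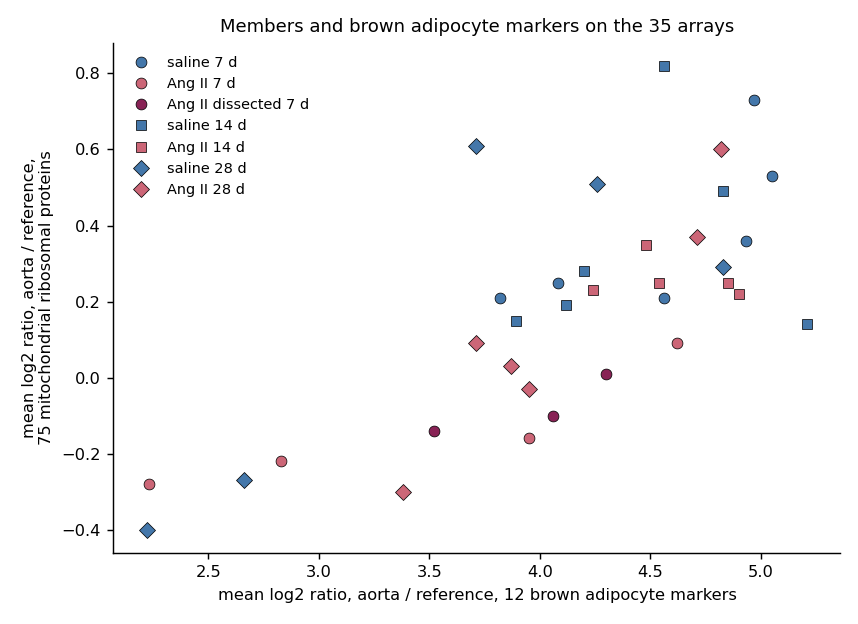
Mean log2 ratio of the 75 members against that of 12 brown adipocyte markers on each of the 35 arrays, coloured by treatment and shaped by time. The 4 arrays with brown adipocyte means below 3 (2 saline at 28 days, 2 Ang II at 7 days) have member means from -0.40 to -0.22, and the 3 dissected arrays, between 3.52 and 4.30, have member means from -0.14 to 0.01. The lowest Ang II array at 28 days, which is not among those 4, has a member mean of -0.30.

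At 14 days the members did not separate the groups. The mean over the 75 genes ran from 0.14 to 0.82 in 6 saline arrays, with a median of 0.24, and was 0.35, 0.25, 0.23, 0.25 and 0.22 in 5 Ang II arrays. The Ang II arrays lay inside the saline range. No member was called by limma, 2 had an unadjusted p under 0.05, and 2.40 percent of all genes were called. The median change was -0.09. Mrps23 alone had no overlap between groups (1.82 percent of all genes lay apart downward and 1.44 percent upward), with an estimate of -0.42 (adjusted p = 0.353).

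At 28 days the groups overlapped again. The mean was 0.29, 0.61, 0.51, -0.40 and -0.27 in 5 saline arrays, and ran from -0.30 to 0.60 in 6 Ang II arrays, median 0.06. Saline replicates 4 and 5 lay apart from the other 3 saline arrays of that time. They also had the lowest respiratory chain means (0.18 and 0.19, against 1.47 to 1.84) and brown adipocyte means (2.22 and 2.66, against 3.71 to 4.83) of those 5, and the part of either in the members' values was not tested. No member was called by limma, 2 had an unadjusted p under 0.05, and 0.900 percent of all genes were called, 0.0643 percent lower and 0.836 percent higher. The median was -0.01 beside 0.04 over all genes.

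The sign at 28 days differed between scan days. Within day 1, with 2 saline and 3 Ang II aortas, the median was -0.65 and none was called although 51 members had an unadjusted p under 0.05 in limma. Within day 2, with 3 saline aortas, replicates 4 and 5 among them, and 3 Ang II aortas, it was 0.44 and 3 members were called higher.

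The change with time was not resolved gene by gene. The Ang II change at 28 days minus that at 7 days had a median of 0.49 (beside 0.03 over all genes) and was below 0 in 3 of 75 members. At 14 minus 7 days the median was 0.45 (beside -0.04). In limma no member was called in either contrast. Of all genes 2.63 percent were called at 28 minus 7 days (1.98 percent lower and 0.653 percent higher) and 1.02 percent at 14 minus 7 days (0.782 percent lower and 0.241 percent higher). Among members, at an unadjusted p under 0.05 there were 26 and 19 in turn. In the joint test over both contrasts none was called, 17 had an unadjusted p under 0.05, and 1.48 percent of all genes were called. The largest differences between 28 and 7 days were those of Mrpl39 (1.12, adjusted p = 0.109), Mrpl34 (1.08, adjusted p = 0.185), Mrps36 and Mrpl12 (1.06 each).

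Among saline arrays no member was called across the 3 times by limma, none had an unadjusted p under 0.05, and 0.503 percent of all genes were called. The estimate at 28 against 7 days was below 0 for 73 of 75 members, with a median of -0.22 beside -0.05 over all genes. It was lowest for Mrpl12, at -0.61 (0.295, adjusted p = 0.382), whose 5 saline values at 28 days were 0.46, 1.30, 0.86, -1.16 and -0.88. The 2 values below 0 are those of replicates 4 and 5.

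Averaged over the 3 times, 22 members fell and 1 rose, with a median of -0.21. Over all genes 27.2 percent were called, 11.6 percent lower and 15.6 percent higher. The lowest were Mrps14 at -0.68 (adjusted p = 1.22e-05), Mrps36 at -0.64, Mrps31 at -0.54, Mrpl3 and Mrpl39 at -0.50 each, Mrpl9 and Mrpl15, both counterparts of bacterial proteins, at -0.49 each, and Mrpl55 at -0.48. Mrpl52 rose by 0.39 (adjusted p = 0.00363). With median centring Mrpl52 stood at 0.23 and was not called (adjusted p = 0.342), nor was Mrpl39 (adjusted p = 0.0697). With scale normalization Mrpl39 (adjusted p = 0.0932) and Mrpl3 (adjusted p = 0.0552) missed the threshold. Mrps14 had estimates of -0.99 at 7, -0.48 at 14 (adjusted p = 0.124) and -0.57 at 28 days (adjusted p = 0.11). Its saline values at 28 days, 0.64, 0.76, 0.83, 0.47 and 0.64, lay close together. Its 6 Ang II values there ran from -0.76 to 0.64 with a median of 0.14. Within scan day 1 the count was 37, all lower, and within day 2 it was 0, with 3 at an unadjusted p under 0.05 in limma.

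**Figure D5:**
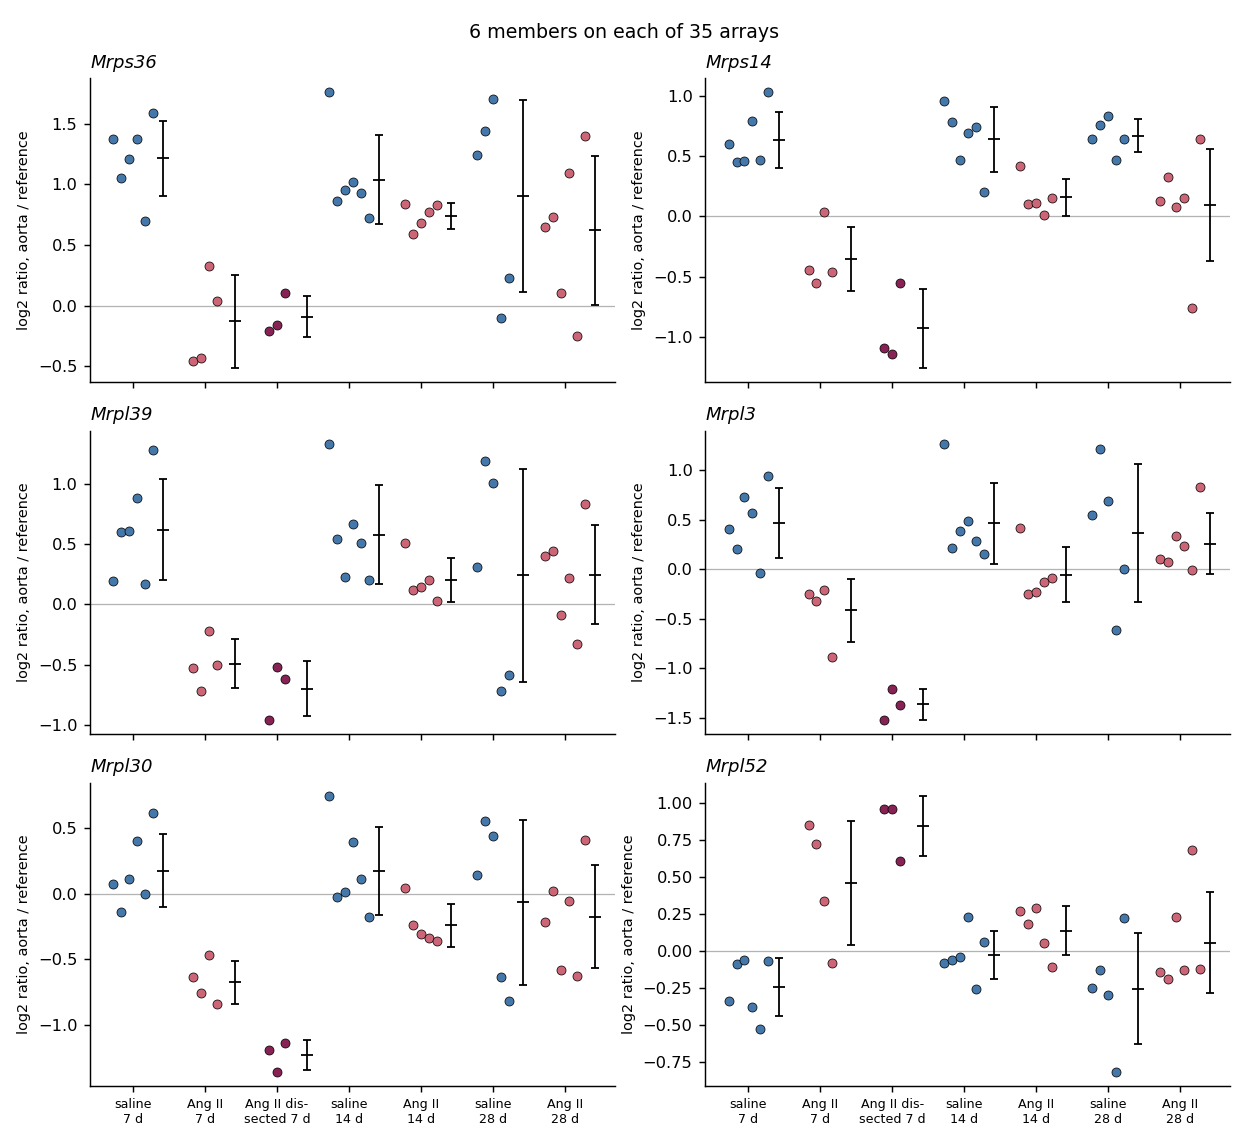
Log2 ratio of aorta to reference of 6 members on each array, with mean ± SD beside each group (n = 6, 4, 3, 6, 5, 5 and 6 from left to right). Mrps36, Mrps14, Mrpl39, Mrpl3 and Mrpl30 are lower and Mrpl52 is higher in both Ang II groups at 7 days, and Mrpl3 and Mrpl30 are lowest in the 3 dissected aortas.

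In the 3 dissected aortas members were lower than in saline aortas as well. Their means were -0.14, -0.10 and 0.01, below all 6 saline arrays at 7 days. Of the 75 members 30 fell and 2 were called higher, 1 of which, Mrpl49, depended on its probe and on single arrays. Over all genes 36.5 percent were called, 17.6 percent lower and 18.9 percent higher. The median was -0.49 beside -0.04 over all genes. In 34 members the dissected values lay below all saline values (16.3 percent of all genes) and in 3, Mrpl49, Mrpl52 and Mrpl54, above (17.2 percent). Within scan day 2, which holds all dissected arrays, 33 fell, 1 rose and the median was -0.64. With each array centred on its median the count was 43, all lower, with a median of -1.18, but the median of all genes then shifted to -0.36.

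Mrpl3 had the lowest estimate here. It was -1.52, -1.21 and -1.37 in the dissected aortas, -0.25, -0.32, -0.21 and -0.89 in the other Ang II aortas at 7 days, and ran from -0.04 to 0.94 in saline aortas. The 3 groups did not overlap, and the fall from saline was 1.83 (0.277, adjusted p = 6.37e-06), or 3.55-fold. Mrps14 was -1.09, -1.14 and -0.55, a fall of 1.56 (0.202, adjusted p = 6.55e-07). Mrpl30, the counterpart of bacterial L30, was -1.19, -1.36 and -1.14 against -0.14 to 0.61 in saline aortas, a fall of 1.41 (0.245, adjusted p = 4.14e-05).

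The dissected aortas were also the lower of both Ang II groups for Mrpl30, without overlap, since the 4 other Ang II values ran from -0.84 to -0.47. That difference was not called in limma (-0.55, standard error 0.264, adjusted p over probes = 0.221). Over all genes 15.1 percent lay apart downward between these groups. Further falls from saline were those of Mrpl39 (-1.32), Mrps36 (-1.31), Mrps31 (-1.26), Mrpl46, found only in mitochondria (-1.15), and Mrps23 (-1.0). Mrpl52 was 0.96, 0.96 and 0.61 and rose by 1.09 (0.196, adjusted p = 6.11e-05), and its second probe gave 1.54 (0.243). With median centring its estimate was 0.48 and the call was lost (adjusted p = 0.228). Mrpl34 and Mrpl55, among the lowest without dissection, were at -0.78 (adjusted p = 0.0921) and -0.38 (adjusted p = 0.297).

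The rise of Mrpl49 rested on its probe. The brightest gave 0.47 (0.186, adjusted p = 0.0458), while its 2 other probes, designed on the same transcript, gave -0.98 and -0.53, both past the threshold over probes. The mean of the 3 was -0.35 (adjusted p = 0.0489), and median centring gave -0.23. The call on the brightest probe was also lost with scale normalization, no background subtraction or no probe filter (adjusted p = 0.108, 0.0536 and 0.0598), and without saline replicate 1, 3 or 4 or any of the 3 dissected arrays (adjusted p from 0.0502 to 0.189). Probes of 8 of the 30 members with more than 1 differed in sign in this comparison, 5 of them with a call. Beside Mrpl49 these were Mrpl38 (-0.20, -0.77 and 0.61), Mrps15 (-0.76 and 0.54), Mrps18b (-0.51 and 0.09) and Mrps9 (-0.40, -0.49 and 0.12).

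Of the accompanying lists, 51 of 81 respiratory chain genes fell and 1 rose (median -1.07), and 34 of 80 cytosolic ribosomal protein genes rose and 3 fell (median 0.60). Of the brown adipocyte markers 2 of 12 fell (median -0.14), beside 17.6 percent of all genes called lower, with array means of 3.52, 4.06 and 4.30. With that mean as a covariate 29 members were called, 24 lower and 5 higher, and the median was -0.31. With the 5 neighbouring tissues it was 28, 23 lower and 5 higher, and -0.30. Macrophage markers were higher in all 13 (median 2.41) and dividing cell markers in 7 of 8.

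Between dissected and other Ang II aortas at 7 days 2 members were called, while 8.03 percent of all genes were, 4.98 percent lower and 3.06 percent higher. Mrpl3 was lower by 0.95 (0.300, adjusted p = 0.0465), with its 3 other probes at -0.53, -0.88 and -0.09. Mrps12, which was 0.64, 0.39 and 0.80 in dissected and -0.60, -0.25, 0.46 and 0.10 in the other Ang II aortas, was higher by 0.68 (0.210, adjusted p = 0.0411), with overlapping groups. With median centring Mrps12 stood at 0.17 (adjusted p = 0.834) and with the authors' ratios at 0.60 (adjusted p = 0.107). The median over the 75 members was 0.08. In 4 members the dissected values lay below all others (15.1 percent of all genes) and in 4 above (11.8 percent). With an array left out, 0 to 2 members were called: none without Ang II replicate 1 or 2 or without any of the 3 dissected arrays, and Mrps12 alone without Ang II replicate 3. Scan day as a term left none called by limma, and 3 of the 4 other Ang II arrays were scanned on another day than the dissected ones.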

How the data were processed

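Each array gave the authors' scanner output: deposited intensities of both channels per spot, with a log10 ratio of aorta (Cy5) over reference (Cy3), per the file headers. The submitters' processing notes name Agilent Feature Extraction, version 9.5.3.1, as the scanner software. The authors' deposited series table holds values that matched log2 of those ratios (slopes 3.321 to 3.341 against the log10 ratio, r from 0.986), with medians of -0.0675 to 0.109 per array. Direction follows the labels' dyes. The intensities were corrected with normexp (offset 50) and loess in limma 3.58.1 (R 4.3.3), control spots were given no weight, and spots of a probe were averaged. Probes entered the test where at least 3 arrays had an aorta signal well above background, which kept 27824 of 41174 probes, and the brightest probe stood for a gene. Array gene names were updated through RefSeq accessions (24375 probes), symbols (6301) and synonyms (2426), and 8072 kept the file's name.

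One limma model of 7 group means over 35 arrays gave all contrasts, with Benjamini-Hochberg adjustment over 18670 genes, a threshold of 0.05 and standard errors in brackets after log2 changes. Each array is 1 aorta, so p-values rest on the spread from aorta to aorta, and their number limits the precision. On simulated data for the 7-day contrast, 154 of 200 genes changed by 1 on the log2 scale and 191 of 200 changed by 2 were called. Named in each comparison were up to 8 called members with the largest fall and up to 8 with the largest rise, called members whose probes differed in sign, and 18 members fixed by role. Members outside that rule that are named with values were chosen after their values were seen. The members and gene lists were chosen with earlier results of these data known. Replicate numbers met the criterion for pairing (every same-numbered pair correlated over 0.1) between dissected and saline arrays only (0.497, 0.498 and 0.13), as a hint from the data and not from the labels, and no block was fitted in the reported model. Alternatives changed the normalization, probe filter, choice of probe, blocks, covariates and samples.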

Additional observations from a re-analysis of the deposited data

Results flagged for a closer look

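Among 174 sets of group values examined for a sample far from the rest, 11 had one, where chance alone gives about 1 in 20. In the saline group at 14 days replicate 1 was far above the others for Mrps36 (1.76, next 1.02), Mrpl3 (1.26, next 0.49), Mrpl46 (0.98, next 0.32), Mrpl45 (0.74, next 0.10) and Mrps2 (1.22, next 0.51). In the Ang II group at 7 days Mrpl3 was far lowest in replicate 4 (-0.89, next -0.32) and Mrpl11 far highest in replicate 3 (0.10, next -0.35). In the Ang II group at 14 days replicate 1 was far highest for Mrpl3 (0.42, next -0.09), Mrpl46 (0.93, next 0.06) and the mean of the 75 members (0.35, next 0.25), and far lowest for Mrps16 (0.26, next 0.56).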

How the results depend on the processing

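The fall at 7 days kept a median below 0 under every alternative run. Its count of 39 was 37 to 55 with the scanner's or the authors' ratios, no background subtraction, other probe filters, the mean of probes, only the groups compared, array weights, slide as a block, scan day as a term or without the 2 arrays least like their group. It was 2 with median centring (1559 of all genes called), 21 with scale normalization (4005) and 22 within scan day 1 (2744). It was 8 with the brown adipocyte covariate (3374), 1 with 5 tissue covariates (1217), and 24 to 47 with an array left out. Within day 2 it was 0, from 1 Ang II array, which says nothing about stability. Averaged over times the count of 23 became 7 with median centring, 37 within day 1, 0 within day 2 (1 Ang II array at 7 days), and 18 to 31 with an array left out. For dissected against saline, 32 became 21 with scale normalization and 22 to 33 with an array left out. The count of 0 at 28 days became 1 with the scanner's ratios (426 of all genes called) and 1 with the authors' ratios (427). It became 2 with scale normalization (1710) and 3 within day 2 (1468).

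Between dissected and other Ang II aortas the count of 2 was 0 with scale normalization, no probe filter, scan day as a term, within day 2 or with 5 tissue covariates. It was 1 with median centring, no background subtraction or the mean of probes, 4 without the 2 arrays least like their group, 5 with the brown covariate and 7 with array weights. With an array left out it was 0 to 2. The joint test over times gave 8 with array weights and 1 without those 2 arrays, and 0 with any array left out, as did 14 days, 28 days and the saline arrays across times. Mrpl49 in dissected aortas turned to -0.23 with median centring and -0.35 with the mean of probes. The cause was not tested. Only median centring moved the median of all genes by over 0.1, to -0.36 and -0.29 for dissected against saline and against other Ang II aortas, and to -0.15 at 14 days.

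With the replicate number as a block, 38 members were called at 7 days, 33 for dissected against saline, 23 averaged over times, 0 at 14 and at 28 days, and 4 between dissected and other Ang II aortas. Outside the dissected comparison with saline, 6 of 14 same-numbered pairs correlated over 0.1 (range -0.397 to 0.594). There 5 of 14 Ang II arrays correlated best with their own number, 3 of 5 of them at 14 days. The criterion for pairing was not met, and whether those arrays were paired cannot be told from these values.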
